A study of Mus musculus with 12 samples.

Results

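Ageing was followed in adipocytes labelled as carrying floxed Crtc2 alleles without the knockout: primary adipocytes of mouse epididymal fat, the visceral fat pad beside the testis, at 18 months (old) against 3 months (young). The libraries were chosen by label, as those of C57BL/6N mice called Crtc2 f/f and WT at each age, 3 old and 3 young, which makes 6 of the 12 libraries of the series. Crtc2 encodes a coactivator of the cAMP-responsive transcription factor CREB, and the other 6 libraries, again 3 old and 3 young, are labelled as an adipocyte-specific Crtc2 knockout (AKO). The AKO libraries were used in the estimate of the spread and in the last comparison. The labels name neither the promoter that drove Cre in the AKO mice, nor how the adipocytes were isolated, nor whether every library is another mouse, so p-values measure the spread between libraries, which may be technical.

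RNA with poly(A) tails was sequenced, and the reads estimated for each transcript were summed per gene symbol. The old WT libraries held 60224665, 51843967 and 45935795 estimated reads and the young WT libraries 50800576, 53051949 and 55366862. Levels are given per library, in the order of replicates 1 to 3, as CPM, reads scaled to a common library size with TMM, which compares libraries but not genes, and for levels between genes as FPKM, which is also scaled for length. Fold changes are log2 values of old over young with their standard errors, and a gene counts as called at a Benjamini-Hochberg adjusted p under 0.05 in the edgeR quasi-likelihood test over all 15068 genes tested (n = 3 libraries per group). In bulk samples, fewer cells of a type and less RNA per cell cannot be told apart.

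Crtc2 itself, on chromosome 3 (mm10, chr3:90254281-90264125), had 45.3, 51.6 and 49.97 CPM in old WT libraries, against 53.9, 67.2 and 79.4 CPM in young WT libraries. The groups did not overlap, with the old libraries lower, but the difference of -0.45 ± 0.20 missed the threshold (adjusted p = 0.129), and without young AKO 1 it passed it (-0.45, adjusted p = 0.031). The libraries labelled AKO had more Crtc2 reads than those labelled WT, against their label, and all groups are therefore named as labelled. Whether the genotype labels were exchanged was not tested. Among the 6 WT libraries, old WT 3 and young WT 1 stood apart from their groups. On the first principal component of all 12 libraries (48.4% of the variance) the score of old WT 3 was 104, with 72.4 and 69.2 in old WT 1 and 2. On the second (12.5%) the score of young WT 1 was -23.1, with 50.5 and 45.9 in young WT 2 and 3. Unless a value without a library is given beside it, a called gene named with its fold change kept its call, and the fold change moved by no more than 1.5 times, when any 1 of the 12 libraries was left out.

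White adipocytes store triglyceride in a single large droplet, release fatty acids from it by lipolysis, take up glucose under insulin, oxidise branched-chain amino acids and secrete adipokines such as leptin, adiponectin and adipsin. Epididymal fat of male mice is known to lose some of this capacity with age and to gain immune cells, above all macrophages, with fibrosis and inflammation. The same pad is covered by mesothelium and holds progenitors, vessels and nerves, any of which can contribute RNA to an adipocyte preparation.

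The leading genes of the libraries were those of adipocytes. Fabp4, the adipocyte fatty acid binding protein, had 21448 FPKM in old WT and 23577 FPKM in young WT, and Adipoq, which encodes adiponectin, 3062 FPKM in old WT and 3812 FPKM in young WT, both among the highest levels measured. Fabp4 (log2 fold change -0.28 ± 0.17, adjusted p = 0.26) and Adipoq (-0.46 ± 0.25, adjusted p = 0.204) did not pass the test.

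Many genes changed with age, and more of them rose than fell. Of the 15068 genes tested, 3451 were called (22.9%), 2135 of them higher in old WT (14.2%) and 1316 lower (8.73%). The old and young WT libraries did not overlap in 3347 of the called genes and in 6110 of all genes tested, so a lack of overlap alone is common. The rises were the larger changes, with a median of 1.49 over the genes called higher, and 672 of them were past 2 on the log2 scale. The falls had a median of -0.51, and 42 were past -2. The balance of rises and falls differed with the level. Of 2294 genes with a mean under 1 CPM, 12.2% were called higher and 0.785% lower, and of 3632 genes at 1 to 10 CPM, 24.3% higher and 3.69% lower. Of 7361 genes at 10 to 100 CPM, 10.9% were called higher and 11.4% lower, and of 1781 genes over 100 CPM, 9.32% higher and 18.3% lower. Among the 100 genes with the highest FPKM, 19 were called lower and 8 higher. Leaving out 1 library moved the number of called genes to 1886 without old WT 3 and 1511 without young WT 3, and to 4436 without young WT 1. Without old WT 1, old WT 2 or young WT 2 it was 2629, 2746 or 2368, and a fit of the 6 WT libraries alone called 1058. In limma on the deposited FPKM values with a pseudocount of 1, where the median log2 fold change of all genes was 0.11, 3945 genes were called, 3387 higher and 558 lower. That setting changes the measure and the test together. With scaling alone changed, 2098 were called higher and 1396 lower with RLE size factors, and 2132 higher and 1310 lower with upper quartile scaling.

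**Figure D1:**
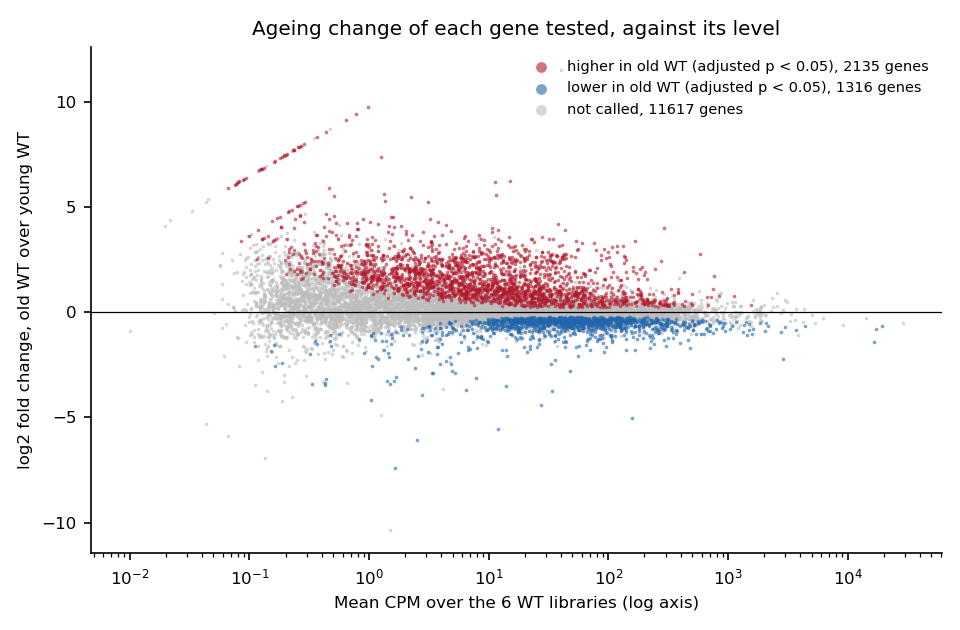
Each point is 1 of the 15068 genes tested, with its mean level over the 6 WT libraries in CPM (log axis) and its log2 fold change of old over young WT. Red points are the 2135 genes called higher, blue points the 1316 called lower and grey points the genes not called. The red points reach farther from 0 than most blue points, and blue points are rare under 1 CPM, where 0.785% of genes were called lower. The diagonal streak at the upper left holds genes with few or no reads in young WT.

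The genes with the smallest p were all called higher, and their known roles differ. Ccl8, a chemokine that attracts monocytes, had 24.5, 16.4 and 19.2 CPM in old WT libraries, against 0.924, 1.32 and 1.53 CPM in young WT libraries. Every old library was above every young library, with a log2 fold change of 3.99 ± 0.31 (adjusted p = 0.000318). Cbr2, a carbonyl reductase, had 57.9, 45.0 and 49.6 CPM in old WT libraries, against 13.8, 16.6 and 13.4 CPM in young WT libraries, a rise of 1.80 ± 0.13 (adjusted p = 0.000318). Slc25a12, the mitochondrial aspartate and glutamate carrier, had 18.5, 19.8 and 18.7 CPM in old WT libraries, against 6.37, 7.59 and 6.12 CPM in young WT libraries, a rise of 1.505 ± 0.13 (adjusted p = 0.000445). The neuronal ubiquitin hydrolase gene Uchl1 rose by 2.42 ± 0.20 log2 units, the calcineurin regulator gene Rcan2 by 2.37 ± 0.22, Fez1, which encodes an axonal transport adaptor, by 2.46 ± 0.23, Wfdc17 by 2.82 ± 0.25 and Tmem150c by 3.24 ± 0.30 (adjusted p = 0.000445 each). Rab27b, a GTPase of vesicle secretion, had 3.65, 3.20 and 3.57 CPM in old WT libraries, against 0.281, 0.170 and 0.149 CPM in young WT libraries. Its rise of 4.11 ± 0.51 (adjusted p = 0.00161) was among the 15 largest.

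Other large rises changed in size when 1 library was left out, or had no read in young WT. Gdf3, which encodes a TGF-beta family ligand, had 3.04, 1.18 and 14.1 CPM in old WT libraries, against 0.1005, 0.377 and 0 CPM in young WT libraries. Its log2 fold change was 5.24 ± 1.14 (adjusted p = 0.0108); without old WT 3 it was 3.70 (adjusted p = 0.0405), and without young WT 2 it was 6.90 (adjusted p = 0.0187), and without young WT 3 it was 4.65 (adjusted p = 0.0372). Dhrs9, a retinol dehydrogenase gene, rose by 4.27 ± 0.84 log2 units (adjusted p = 0.00781), and without old WT 3 it was 2.55 (adjusted p = 0.013). In both genes old WT 3 was far above the other old libraries. Otop1, a proton channel gene, had 7.34, 3.21 and 8.11 CPM in old WT libraries, against 0.703, 0.132 and 0.0373 CPM in young WT libraries, a rise of 4.43 ± 0.94 (adjusted p = 0.0101), and without young WT 1 it was 6.16 (adjusted p = 0.00338). Among called genes above a minimum of reads over the WT libraries, 6 had no read in young WT. Called genes with fewer reads were not searched for this. For these 6 genes folds were taken against 3 reads in the young group, a lower bound that allows for counting error alone. They were Zfp973 (at least 101-fold higher in old WT), Sh2d1b1 (at least 76.3-fold higher), Pira11 (at least 67.1-fold higher), Shisa9 (at least 43.0-fold higher), Lhx8 (at least 37.5-fold higher) and Dsc2 (at least 30.8-fold higher). Without old WT 3 the fitted log2 fold change of Sh2d1b1 was 8.53, against 9.40 with all libraries.

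The largest falls were in serine protease inhibitor, cytochrome P450 and signalling genes. Cyp2b10, a xenobiotic-metabolising cytochrome P450, had 0.202, 0.375 and 0.198 CPM in old WT libraries, against 0.462, 4.05 and 3.70 CPM in young WT libraries. Old libraries lay below every young one, which the rule for naming the largest falls requires, with a log2 fold change of -3.40 ± 0.75 (adjusted p = 0.0114). Tst, which encodes the mitochondrial sulphurtransferase rhodanese, had 11.03, 12.7 and 12.2 CPM in old WT libraries, against 19.0, 104 and 127 CPM in young WT libraries, a log2 fold change of -2.80 ± 0.58 (adjusted p = 0.00903). Angpt1, the ligand of the endothelial receptor TIE2, had 3.88, 3.73 and 6.38 CPM in old WT libraries, against 19.97, 60.9 and 108 CPM in young WT libraries. It fell (-3.76 ± 0.64, adjusted p = 0.00517), and without young WT 3 it was -3.12 (adjusted p = 0.021). Pon1, the paraoxonase carried on high-density lipoprotein, fell (-3.13 ± 0.57, adjusted p = 0.0062), and without young WT 3 it was -2.49 (adjusted p = 0.0255). Neighbouring genes of the Serpina3 cluster, Serpina3i, Serpina3j, Serpina3k, Serpina3m and Serpina3n (chr12:104263122-104414329), were all called lower. Serpina3k fell (-5.56 ± 1.19, adjusted p = 0.0102), and without young WT 3 it was -4.71 (adjusted p = 0.0365). These paralogs are closely related, so the split of reads among them is uncertain.

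Genes that mark the adipocyte itself fell or did not pass the test, and none was called higher. Of the 30 identity markers, all tested, 11 were called lower, and their median log2 fold change was -0.39, against 0.03 over all genes tested. Cfd encodes adipsin, the complement factor D that adipocytes secrete. It had 10480, 9313 and 6880 CPM in old WT libraries, against 16401, 25228 and 30540 CPM in young WT libraries, a log2 fold change of -1.44 ± 0.31 (adjusted p = 0.0104). No old library reached the lowest young one. Plin4, a coat protein of small lipid droplets, had 2706, 2747 and 2524 CPM in old WT libraries, against 4990, 4726 and 4635 CPM in young WT libraries, a log2 fold change of -0.85 ± 0.16 (adjusted p = 0.00643). Cebpa, the adipogenic transcription factor, fell (-0.54 ± 0.11, adjusted p = 0.0101), and Adrb3, the beta-3 adrenergic receptor of adipocytes (-0.97 ± 0.22, adjusted p = 0.0117). Plin1, the main droplet coat protein, had 1416, 1181 and 987 CPM in old WT libraries, against 1683, 1811 and 1838 CPM in young WT libraries, a log2 fold change of -0.57 ± 0.14 (adjusted p = 0.0149), and without young WT 3 its log2 fold change was -0.55 (adjusted p = 0.0501). Pparg, the master regulator of adipogenesis, was at -0.35 ± 0.23 (adjusted p = 0.289) and was not called. The summed level of the 30 markers was 89266, 84920 and 70966 CPM in old WT libraries, against 117093, 118353 and 129320 CPM in young WT libraries. Single omissions moved the count called lower to 5 without young WT 3, 6 without old WT 3 and 5 in the fit of the 6 WT libraries alone, and without young WT 1, 2 markers were called higher.

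Adipocytes also make hormones. Agt, which encodes angiotensinogen, had 306, 299 and 174 CPM in old WT libraries, against 516, 653 and 802 CPM in young WT libraries, a log2 fold change of -1.34 ± 0.27 (adjusted p = 0.00782). Old libraries were all below the young ones. Vegfa, the vascular growth factor, had 336, 396 and 325 CPM in old WT libraries, against 635, 516 and 584 CPM in young WT libraries, a log2 fold change of -0.72 ± 0.11 (adjusted p = 0.00445). Metrnl, which encodes the secreted protein meteorin-like, rose by 2.50 ± 0.51 log2 units (adjusted p = 0.00857), and without old WT 3 it was 1.63 (adjusted p = 0.0178). Lep, the leptin gene, had 3854, 3977 and 2906 CPM in old WT libraries, against 4907, 1811 and 1044 CPM in young WT libraries, and the groups overlapped because young WT 1 was above every old library (log2 fold change 0.47 ± 0.45, adjusted p = 0.476). Of 35 adipokine genes tested, 3 were called higher and 5 lower, against 14.2% and 8.73% of all genes. In single omissions the number called higher became 9 without young WT 1 and 0 in the fit of the 6 WT libraries alone, and the number called lower was 3 without young WT 2 or 3 and 3 in the fit of the 6 WT libraries alone.

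Several genes of triglyceride synthesis fell, among them enzymes of the acylation steps. Gpam, the first enzyme of glycerolipid synthesis, had 113, 114 and 80.8 CPM in old WT libraries, against 232, 385 and 396 CPM in young WT libraries. The old libraries were all lower, with a log2 fold change of -1.72 ± 0.24 (adjusted p = 0.00313). Mlxipl, which encodes the glucose-sensing transcription factor ChREBP, fell (-1.06 ± 0.19, adjusted p = 0.00628). Pnpla3, a lipase and acyltransferase of droplets, had 229, 301 and 147 CPM in old WT libraries, against 470.4, 835 and 899 CPM in young WT libraries, a log2 fold change of -1.70 ± 0.29 (adjusted p = 0.00517). Agpat3, an acyltransferase that makes phosphatidic acid, fell (-0.54 ± 0.10, adjusted p = 0.00669), and Lpin1, the phosphatidate phosphatase that follows it (-1.22 ± 0.28, adjusted p = 0.0123). Acacb, the acetyl-CoA carboxylase that makes malonyl-CoA at mitochondria, fell (-1.78 ± 0.40, adjusted p = 0.0116), and without young WT 3 it was -1.11 (adjusted p = 0.0342). Of the 30 genes tested on this list, 10 were called lower and 1 higher, with a median of -0.52, and the count called lower was 7 to 11 when 1 library was left out and 3 in the fit of the 6 WT libraries alone. Fasn, the fatty acid synthase, had 2170, 3817 and 1379 CPM in old WT libraries, against 1484, 7757 and 6548 CPM in young WT libraries. The groups overlapped, with young WT 1 near the old libraries (log2 fold change -1.10 ± 0.66, adjusted p = 0.243). Of 17 genes of fatty acid uptake 1 was called higher, against 14.2% of all genes. When 1 library was left out 0 to 2 were called higher and 0 to 3 lower. The 25 genes of cholesterol synthesis tested had a median of -0.25. Among them Cyp51, the lanosterol demethylase, was at -0.89 ± 0.36 (adjusted p = 0.0957), and it passed the threshold without young WT 1 (-1.15, adjusted p = 0.031) or young AKO 1 (-0.89, adjusted p = 0.0489).

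Several lipolysis genes fell. Pnpla2 encodes ATGL, the lipase that removes the first fatty acid from triglyceride, and had 2015, 1834 and 1843 CPM in old WT libraries, against 3243, 3852 and 3736 CPM in young WT libraries. The log2 fold change was -0.93 ± 0.20 (adjusted p = 0.00974), with no overlap of the groups. Ces1f and Ces1d are carboxylesterases with triglyceride lipase activity. Ces1f fell (-1.79 ± 0.22, adjusted p = 0.00161) and Ces1d (-1.08 ± 0.25, adjusted p = 0.0136), although these paralogs may share reads. Gnai2, an inhibitory G protein subunit that restrains lipolysis, was called higher at 0.44 ± 0.08 (adjusted p = 0.0062). Fitm2, needed for droplet budding, fell (-0.81 ± 0.13, adjusted p = 0.00505), and Lpcat1, a phosphatidylcholine-making enzyme, rose by 0.58 ± 0.12 log2 units (adjusted p = 0.00891). Of 29 lipolysis genes tested, 10 were called lower and 2 higher (median -0.19), and the count called lower was 4 without young WT 3, 5 without old WT 3 and 5 in the fit of the 6 WT libraries alone. The number called higher was 1 without old WT 1, 2 or 3 or young WT 3 and 0 in the fit of the 6 WT libraries alone. Of 19 droplet proteins, 5 were called lower and 2 higher, against 8.73% and 14.2% of all genes. Leaving out 1 library gave 3 to 7 lower and 1 or 2 higher.

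In the catabolism of branched-chain amino acids, a pathway that is prominent in adipocytes, genes of many steps fell together. Bcat2, the mitochondrial transaminase that starts the pathway, had 198, 198 and 166 CPM in old WT libraries, against 266, 498 and 566 CPM in young WT libraries. All old libraries were lower, with a log2 fold change of -1.24 ± 0.27 (adjusted p = 0.0112). Dbt, the transacylase subunit of the branched-chain ketoacid dehydrogenase, had 79.1, 74.1 and 67.0 CPM in old WT libraries, against 115, 117 and 150.2 CPM in young WT libraries, a log2 fold change of -0.79 ± 0.12 (adjusted p = 0.00419). Further along, Acadsb fell (-0.84 ± 0.16, adjusted p = 0.00703), Hsd17b10 (-0.58 ± 0.12, adjusted p = 0.00847), Aldh6a1 (-0.78 ± 0.17, adjusted p = 0.0109) and Mut, which makes succinyl-CoA (-0.43 ± 0.09, adjusted p = 0.0109). In all, 17 of 29 genes tested were called lower and none higher, with a median of -0.45. The count called lower was 6 without young WT 3, 9 without old WT 3 and 7 in the fit of the 6 WT libraries alone, and without young WT 1, 2 were called higher.

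Mitochondrial oxidation showed smaller falls. In the citric acid cycle, Ogdh, a subunit of oxoglutarate dehydrogenase, fell (-0.46 ± 0.09, adjusted p = 0.00857). Pdk4, the kinase that shuts down pyruvate dehydrogenase, had 258, 159 and 381 CPM in old WT libraries, against 102, 90.7 and 75.0 CPM in young WT libraries. It was the single gene of 32 tested that was called higher, at 1.58 ± 0.29 (adjusted p = 0.00633), against 9 called lower. Single omissions moved the count called lower to 2 without young WT 3, 3 without old WT 3 or young WT 2, 15 without young WT 1 and 0 in the fit of the 6 WT libraries alone. Without young WT 1, 2 genes of this list were called higher. In peroxisomes, Pex11a, a factor of peroxisome division, fell (-0.997 ± 0.14, adjusted p = 0.0034). Of 31 genes of fatty acid oxidation and peroxisomes, 12 were called lower and none higher, and the count called lower was 2 without young WT 3, 3 without old WT 3, 5 without old WT 2 and 3 in the fit of the 6 WT libraries alone, and without young WT 1, 1 was called higher. Of 70 nuclear genes of oxidative phosphorylation, 4 were called lower and 2 higher, with a median of -0.12, a share below that of all genes. In single omissions the number called lower became 0 without young WT 3, 1 without old WT 3 or young WT 2, 7 without old WT 1, 9 without old AKO 3, 22 without young WT 1 and 0 in the fit of the 6 WT libraries alone, and the deposited FPKM values turned the sign of the median. Of 44 genes of mitochondrial biogenesis and ribosomes 6 were called lower, against 8.73% of all genes. The number called lower was 0 without old WT 3, 1 without young WT 2 or 3, 3 without old WT 2 or old AKO 2, 12 without old AKO 3, 15 without young WT 1 and 0 in the fit of the 6 WT libraries alone.

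In insulin signalling and glucose use, genes for the receptor, its substrate Irs2 and a hexokinase fell. Hk2, the insulin-responsive hexokinase, had 147, 142 and 118 CPM in old WT libraries, against 262, 322 and 339.8 CPM in young WT libraries. Every old library was below every young one, with a log2 fold change of -1.18 ± 0.12 (adjusted p = 0.000626). Irs2, a docking protein of the insulin receptor, had 92.1, 76.6 and 78.5 CPM in old WT libraries, against 142, 211 and 235 CPM in young WT libraries, a log2 fold change of -1.25 ± 0.21 (adjusted p = 0.00517). Insr, the receptor, had 135, 139 and 113 CPM in old WT libraries, against 219.7, 182 and 209.9 CPM in young WT libraries, a log2 fold change of -0.66 ± 0.11 (adjusted p = 0.00545). Gys1, the glycogen synthase of non-hepatic tissues, fell (-0.97 ± 0.17, adjusted p = 0.00549), Ppp1r3c, a glycogen-targeting phosphatase subunit (-0.85 ± 0.18, adjusted p = 0.00971) and Foxo1, a transcription factor that insulin inhibits (-0.83 ± 0.18, adjusted p = 0.0108). In all, 11 of 40 genes tested were called lower and none higher, and the count called lower was 8 to 12 when 1 library was left out. Without young WT 1, 2 were called higher, and without young AKO 1, 1 was. Slc2a4, the insulin-responsive glucose transporter GLUT4, was at -0.22 ± 0.14 (adjusted p = 0.271) and was not called.

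**Figure D2:**
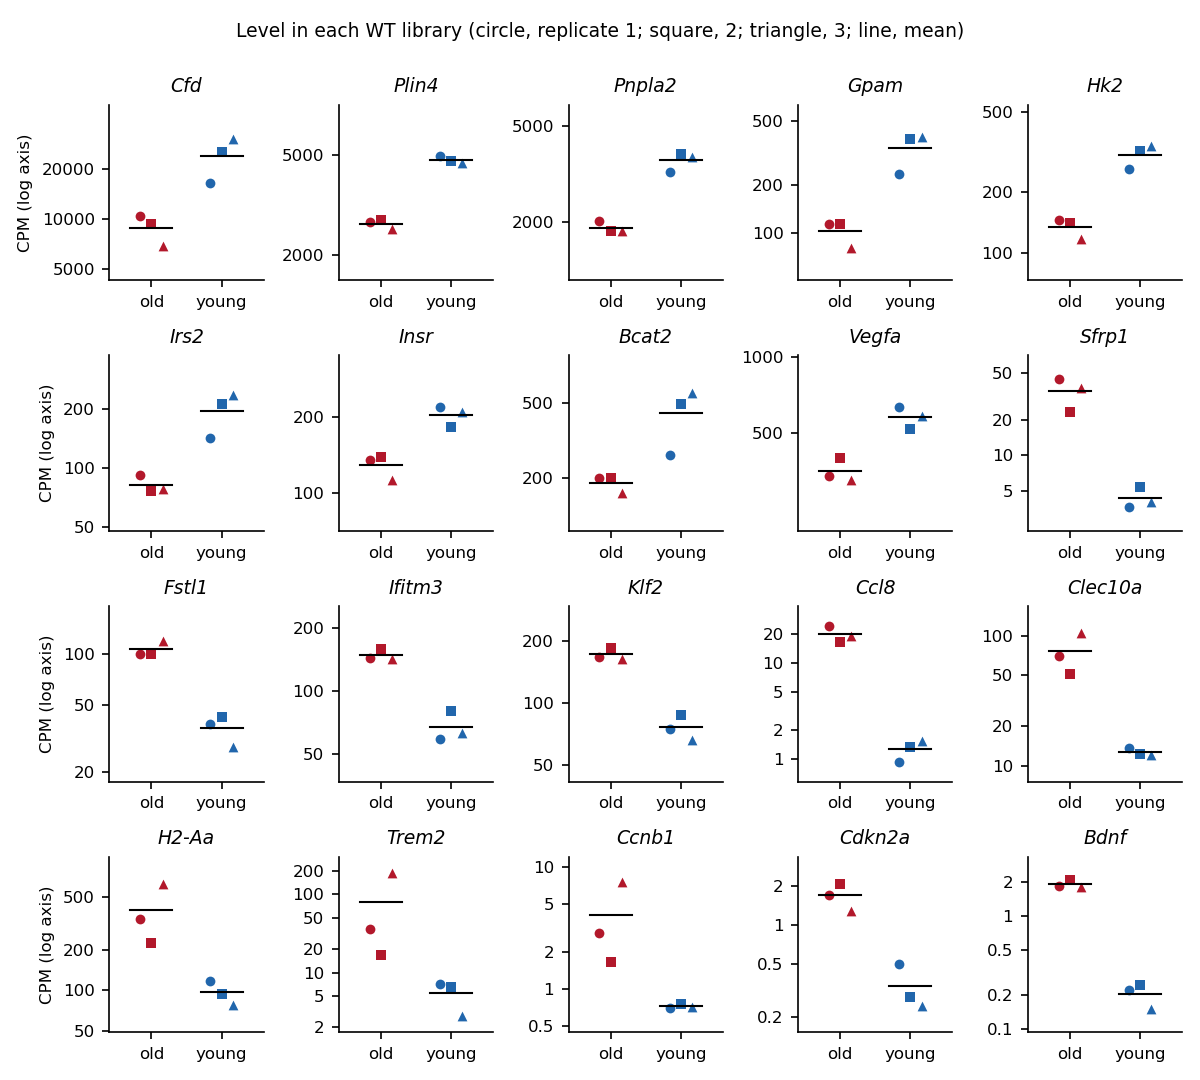
Level in CPM (log axes) of 20 genes in each WT library, old on the left of each panel and young on the right. Circles, squares and triangles are replicates 1, 2 and 3, and the line is the group mean. Metabolic and secreted adipocyte genes such as Cfd, Gpam, Hk2 and Bcat2 are lower in all old libraries, and immune, matrix and regulatory genes such as Ccl8, Clec10a, Sfrp1 and Bdnf are higher. In Trem2 and Ccnb1 the old library marked by a triangle lies far above the other two.

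Receptors for other hormones moved in both directions. Rxra, the shared partner of many nuclear receptors, fell (-0.85 ± 0.12, adjusted p = 0.00357), Ppard (-0.59 ± 0.11, adjusted p = 0.00603), Nr3c1, the glucocorticoid receptor (-0.43 ± 0.09, adjusted p = 0.0101) and Egfr (-0.66 ± 0.14, adjusted p = 0.00975). Nr2f1, an orphan nuclear receptor, had 2.47, 3.04 and 1.47 CPM in old WT libraries, against 5.29, 8.02 and 13.1 CPM in young WT libraries, and all old libraries were lower (log2 fold change -1.92 ± 0.35, adjusted p = 0.00635). Of 33 receptors tested, 13 were called lower and 5 higher, and Lepr, the leptin receptor, and Pdgfra, a receptor of progenitors, were among those called higher. The count called lower was 7 without old WT 3 or young WT 3 and 8 in the fit of the 6 WT libraries alone, and the number called higher was 2 without old WT 2 or 3 or young WT 3, 3 without old WT 1 or young WT 2 and 0 in the fit of the 6 WT libraries alone. Of 22 clock genes, 4 were called lower and none higher. The clock count was 0 without old WT 3 or young WT 2, 1 without young WT 3 and 2 without old WT 1 or old AKO 1 or 2.

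Genes of thermogenesis, the heat production of brown and beige fat, were mixed. Ucp1, which defines that state, had too few reads to be tested. Ucp2, a relative of it that leukocytes also express, rose by 1.77 ± 0.36 log2 units (adjusted p = 0.0085), and without old WT 3 it was 1.12 (adjusted p = 0.0113). Of 18 genes tested, 7 were called higher and 1 lower, the coactivator gene Ppargc1a. Single omissions moved the count called higher to 2 without young WT 3, 3 without old WT 3, 4 without young WT 2 and 1 in the fit of the 6 WT libraries alone, and Ppargc1a was at -0.95 ± 0.29 (adjusted p = 0.0358), but the call was lost without old WT 1, 2 or 3 or young WT 2 or 3 or old AKO 2 (log2 fold change -1.07 to -0.58, adjusted p 0.0502 to 0.126).

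Among targets of CREB and its CRTC coactivators, Bdnf, the brain-derived neurotrophic factor, had 1.86, 2.11 and 1.80 CPM in old WT libraries, against 0.221, 0.245 and 0.149 CPM in young WT libraries. The old libraries were all above the young ones, with a rise of 3.22 ± 0.31 (adjusted p = 0.000461). Areg, an EGF receptor ligand, rose by 2.41 ± 0.47 log2 units (adjusted p = 0.00779), and without old WT 3 it was 1.59 (adjusted p = 0.0154). Of 24 targets tested, 7 were called higher and 1 lower. In single omissions the number called higher became 3 without old WT 3, 4 without old WT 1 or 2 or old AKO 2 and 1 in the fit of the 6 WT libraries alone.

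Nearly all genes that present antigen to helper T cells through MHC class II rose. H2-Aa and H2-Ab1 encode the chains of one class II molecule and H2-Eb1 a chain of another. H2-Aa had 340.5, 226 and 621 CPM in old WT libraries, against 117, 94.1 and 77.7 CPM in young WT libraries. Old libraries were all higher, by 2.04 ± 0.34 (adjusted p = 0.00502). H2-Ab1 rose by 2.03 ± 0.32 log2 units (adjusted p = 0.00421), H2-Eb1 by 1.90 ± 0.33 (adjusted p = 0.00572), the invariant chain Cd74 by 1.92 ± 0.30 (adjusted p = 0.00436) and H2-DMb1, a chain of the peptide loader, by 2.40 ± 0.34 (adjusted p = 0.00337). Cd40, a costimulatory receptor of antigen-presenting cells, had 4.07, 3.57 and 5.61 CPM in old WT libraries, against 1.37, 1.66 and 1.40 CPM in young WT libraries, a rise of 1.58 ± 0.27 (adjusted p = 0.00517). In all, 15 of 17 genes tested were called higher, including the class II transactivator Ciita, and none lower. Leaving out any 1 library gave 13 to 16. H2-Ab1, H2-Aa and H2-Eb1 lie side by side with Btnl2 and BC051142, all called higher (chr17:34263227-34460734).

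Class II promoters are known for an X box beside a Y box that holds CCAAT, the site of the factor NF-Y, and the stretches before the starts of 2 of these genes show that motif (RefSeq, GRCm38.p6). Capitals mark CCAAT on either strand, so ATTGG is its reverse complement. H2-Aa is at chr17:34287827-34287911 on the minus strand and H2-Eb1 at chr17:34305768-34305866 on the plus strand, each read 5′ to 3′ on its own strand.
H2-Aa: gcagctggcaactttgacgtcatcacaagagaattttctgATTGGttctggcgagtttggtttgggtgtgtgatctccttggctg
H2-Eb1: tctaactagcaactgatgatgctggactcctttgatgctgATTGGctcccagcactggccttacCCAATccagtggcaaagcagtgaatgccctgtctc
CCAAT, searched on both strands of the 300 bases around each start, was in 10 of 16 promoters of the class II list (62.5%), against 37.3% of the 14982 promoters of genes tested. Among promoters of all genes called higher it was in 35.4% and of those called lower in 36.1%. Its share did not follow the direction of a list. It was in 64.3% of promoters of branched-chain amino acid catabolism and 50% of those of fatty acid and triglyceride synthesis, where genes fell. Promoters of cholesterol synthesis, with no gene called, held it in 80%, and those of macrophage markers, which rose, in 30%. A match is a description of these letters and not a bound site.

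Nearly all macrophage markers rose. Of 31 tested, 28 were called higher and none lower, with a median of 2.58. Clec10a, a galactose lectin of resident macrophages, had 70.1, 51.0 and 105 CPM in old WT libraries, against 13.6, 12.4 and 12.04 CPM in young WT libraries. The old libraries were all higher, by 2.58 ± 0.24 (adjusted p = 0.000445). The lectin gene Cd209g rose by 2.58 ± 0.25 log2 units (adjusted p = 0.000461), and it lies in a run of 5 neighbours called higher, Cd209d, Cd209b, Cd209c, Cd209f and Cd209g (chr8:3871824-4137707), whose reads may be shared. Folr2, the folate receptor of resident macrophages, rose by 2.70 ± 0.36 log2 units (adjusted p = 0.00214). A second run held the receptor genes Cd300a, Cd300lb, Cd300ld, Cd300c2, Cd300ld4, Cd300ld5 and Cd300ld3 among 10 neighbours called higher (chr11:114765389-115048295). The summed level of the macrophage list was 2646, 1712 and 6927 CPM in old WT libraries, against 716, 746 and 596 CPM in young WT libraries. Old WT 3 was highest and every young library was lower than every old one. The macrophage count was 26 to 28 when 1 library was left out and 15 in the fit of the 6 WT libraries alone, and without old WT 3 the median was 1.76.

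Genes known from macrophages that take up lipid depended more on single libraries. Trem2, their lipid-sensing receptor, had 35.8, 16.8 and 189 CPM in old WT libraries, against 7.07, 6.55 and 2.74 CPM in young WT libraries. Its rise was 3.89 ± 0.79 (adjusted p = 0.0085), and without old WT 3 it was 2.26 (adjusted p = 0.0121). Cd9, a tetraspanin, rose by 2.49 ± 0.42 log2 units (adjusted p = 0.00517), and without old WT 3 it was 1.83 (adjusted p = 0.00752). Ctsk, the collagen-cleaving cathepsin K, rose by 2.49 ± 0.48 log2 units (adjusted p = 0.00722), and without old WT 3 it was 1.47 (adjusted p = 0.00324). Old WT 3 held the highest level of all these. Of 27 genes tested, 14 were called higher and none lower, and the count was 6 without young WT 3, 7 without old WT 3, 8 without young WT 2 and 1 in the fit of the 6 WT libraries alone, and without old WT 2, 1 was called lower. The part of a shift in cell content in the changes of adipocyte genes was not tested.

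Mast cells and eosinophils left a signal of few genes. Tpsb2, a mast cell tryptase, had 2.37, 3.13 and 6.14 CPM in old WT libraries, against 0.362, 0.226 and 0.504 CPM in young WT libraries. Old libraries were all higher, by 3.40 ± 0.58 (adjusted p = 0.0053). Cma1, the mast cell chymase, rose by 3.12 ± 0.69 log2 units (adjusted p = 0.0112) and Hdc, which makes histamine, by 2.13 ± 0.38 (adjusted p = 0.00585). Of 13 markers tested, 5 were called higher and none lower, and the count was 3 without old WT 3 or young WT 3. Fcer1a, the IgE receptor chain, lies in a run of 5 neighbours called higher with Ackr1, Cadm3, Aim2 and Pyhin1 (chr1:173221271-173647928).

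Lymphocyte genes had few reads, and Cd8a and Ncr1, which mark killer T cells and NK cells, had too few to be tested. Icos, a costimulatory receptor of T cells, had 0.559, 0.625 and 0.674 CPM in old WT libraries, against 0.161, 0.226 and 0.0747 CPM in young WT libraries, a rise of 1.99 ± 0.41 (adjusted p = 0.0087). Cd3g, a chain of the T cell receptor complex, had 42 reads in old WT and 3 in young WT. The ratio was 12.8, with an interval of 4.10 to 64.6 that covers counting error alone. The fitted log2 fold change of Cd3g ran from 2.99 to 6.78 when 1 library was left out. Its call was lost under 9 of 24 other settings. Of 27 T, NK and innate lymphoid markers tested, 7 were called higher and none lower, and the count was 2 without old WT 3 or young WT 3, 4 without old WT 1 or 2 or young WT 2 and 1 in the fit of the 6 WT libraries alone. Cd79a, a chain of the B cell receptor complex, had 1.15, 1.38 and 1.31 CPM in old WT libraries, against 0.522, 0.490 and 0.392 CPM in young WT libraries, a rise of 1.44 ± 0.31 (adjusted p = 0.0103). Jchain, which joins secreted antibodies, rose by 3.51 ± 0.52 log2 units (adjusted p = 0.00392), and without old WT 2 it was 2.80 (adjusted p = 0.00358). Of 19 B and plasma cell markers, 8 were called higher and 1 lower, and the count called higher was 5 without old WT 3 or young WT 3 and 4 in the fit of the 6 WT libraries alone.

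Some signals that draw or activate leukocytes rose. Among chemokines, Pf4, the platelet factor that macrophages also make, rose by 1.79 ± 0.29 log2 units (adjusted p = 0.00462), and Ccl11, which attracts eosinophils, had 52.2, 54.4 and 46.5 CPM in old WT libraries, against 21.2, 18.7 and 9.69 CPM in young WT libraries, a rise of 1.63 ± 0.36 (adjusted p = 0.0115). In all 11 of 31 chemokine genes were called higher and none lower, and the count was 6 without young WT 3 and 6 in the fit of the 6 WT libraries alone. Without young WT 1 or young AKO 3, 1 was called lower. Among cytokines and NF-kappaB targets, Tnfsf12, the ligand TWEAK, had 24.6, 20.3 and 40.1 CPM in old WT libraries, against 8.60, 7.78 and 8.03 CPM in young WT libraries. All old libraries were higher, by 1.80 ± 0.23 (adjusted p = 0.00199). Ptgs2, the inducible cyclooxygenase, rose by 2.46 ± 0.43 log2 units (adjusted p = 0.00563) and Traf1 by 1.79 ± 0.35 (adjusted p = 0.00757). Tnf rose by 2.61 ± 0.51 log2 units (adjusted p = 0.00746), and without old WT 3 it was 1.63 (adjusted p = 0.00888). Il1b rose by 2.65 ± 0.55 log2 units (adjusted p = 0.00918), and without old WT 3 it was 1.52 (adjusted p = 0.0109). In all 18 of 38 genes were called higher and none lower, and the count was 8 without young WT 3, where 1 was called lower, 10 without old WT 3 and 5 in the fit of the 6 WT libraries alone.

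Interferon-stimulated genes rose in part. Ifitm3, a membrane protein that blocks virus entry, had 144, 158 and 142 CPM in old WT libraries, against 59.2, 80.0 and 63.4 CPM in young WT libraries. The old libraries were all higher, by 1.13 ± 0.13 (adjusted p = 0.00117). Oas1a, a sensor of double-stranded RNA, rose by 2.05 ± 0.38 log2 units (adjusted p = 0.00669), its relative Oasl2 by 1.15 ± 0.24 (adjusted p = 0.00903), the virus tether Bst2 by 0.83 ± 0.15 (adjusted p = 0.0061) and Psmb10, an immunoproteasome subunit, by 0.60 ± 0.09 (adjusted p = 0.00402). In all 10 of 46 genes tested were called higher, against 14.2% of all genes, and none lower. Without young WT 1, 8 were called higher and 3 lower, and without young WT 2 or young AKO 3, 1 was called lower. The motif GAAANNGAA, on either strand, was in 21 of 40 promoters of the list (52.5%), against 7.35% of promoters of all genes tested. Of 22 genes of class I presentation 4 were called higher and 2 lower, near the shares of all genes (14.2% and 8.73%). When 1 library was left out 1 to 6 were called higher and 1 or 2 lower, and in the fit of the 6 WT libraries alone 2 and 1. Mr1, which presents vitamin B metabolites, was one of the falls at -0.62 ± 0.13 (adjusted p = 0.00907).

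Complement genes were called in both directions. C1qa, a chain of the recognition molecule of the classical pathway that macrophages make, rose by 2.50 ± 0.31 log2 units (adjusted p = 0.00161). Cfp, which encodes properdin, the stabiliser of the alternative pathway, had 55.7, 42.0 and 98.1 CPM in old WT libraries, against 16.0, 14.8 and 15.3 CPM in young WT libraries, a rise of 2.09 ± 0.27 (adjusted p = 0.00199). Cfd, which starts the alternative pathway and fell as given above, was called lower, as were C6 and C2. In all 10 of 28 genes were called higher and 3 lower. The count called higher was 5 in the fit of the 6 WT libraries alone and 15 without young WT 1, and the count called lower was 1 without old WT 1 or 3 or young WT 2 or 3 or old AKO 1, 2 or 3.

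**Figure D3:**
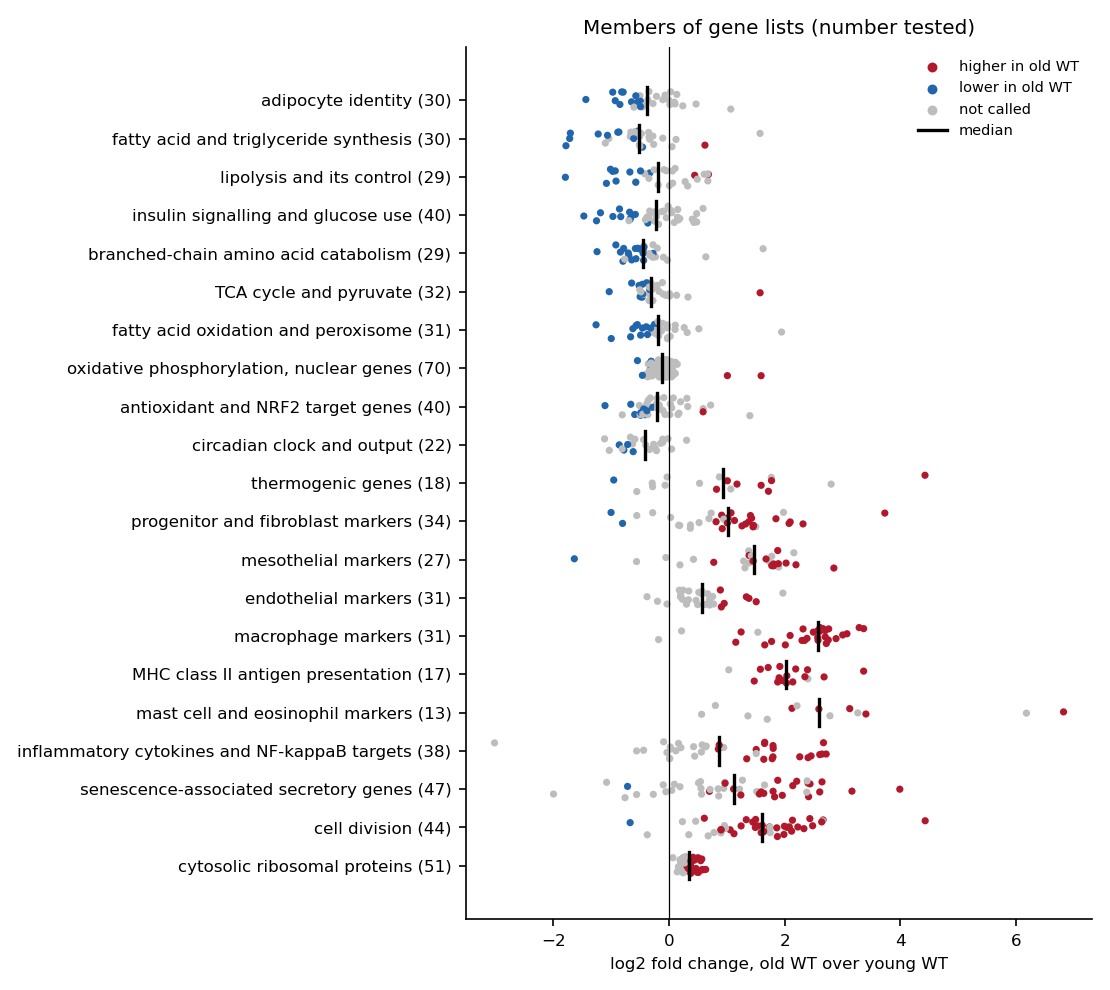
Each dot is 1 tested member of a gene list at its log2 fold change of old over young WT, for 21 lists. Red and blue dots were called higher and lower, grey dots were not called, and the black line is the median of the list. Most lists of adipocyte metabolism have their median to the left of 0, and those of immune cells and cell division have it to the right with a wide spread.

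Many markers of progenitors and fibroblasts rose. Cd248, a surface protein of perivascular progenitors, had 18.1, 22.02 and 20.4 CPM in old WT libraries, against 7.56, 9.04 and 7.58 CPM in young WT libraries. The old libraries were all higher, by 1.32 ± 0.16 (adjusted p = 0.00161). Fap, a fibroblast peptidase, rose by 1.45 ± 0.24 log2 units (adjusted p = 0.00512), Penk by 1.41 ± 0.24 (adjusted p = 0.00517) and Mfap5, a microfibril protein, by 1.85 ± 0.34 (adjusted p = 0.00623). Of 34 progenitor and fibroblast markers tested, 19 were called higher and 2 lower, with a median of 1.01. Single omissions moved the count called higher to 11 without young WT 3 and 12 in the fit of the 6 WT libraries alone, and the number called lower was 1 without old WT 1, 2 or 3 or young WT 1, 2 or 3 or old AKO 1 or 2 or young AKO 3 and 0 in the fit of the 6 WT libraries alone. Summed levels ran the other way, at 16308, 15579 and 13199 CPM in old WT libraries, against 27748, 23526 and 20044 CPM in young WT libraries. Gsn, which encodes the actin-severing protein gelsolin and is one of the 2 called lower, held most of that sum, with 13960, 12964 and 10984 CPM in old WT libraries, against 25848, 21631 and 18596 CPM in young WT libraries (log2 fold change -0.80 ± 0.25, adjusted p = 0.0421). For Gsn the call was lost without old WT 1, 2 or 3 or young WT 1, 2 or 3 or old AKO 1 or 2 or young AKO 3 (log2 fold change -0.93 to -0.67, adjusted p 0.0553 to 0.11).

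Markers of mesothelium, the layer that covers the pad, rose in part. Aldh1a2, which makes retinoic acid, had 11.4, 8.59 and 22.7 CPM in old WT libraries, against 4.90, 2.17 and 2.26 CPM in young WT libraries, a rise of 2.20 ± 0.42 (adjusted p = 0.00706). Slc9a3r1 rose by 1.68 ± 0.31 log2 units (adjusted p = 0.0062) and Igfbp6 by 1.88 ± 0.40 (adjusted p = 0.0102), while Bnc2 fell (-1.64 ± 0.28, adjusted p = 0.00517). The summed level of the list was 972, 1140 and 1022 CPM in old WT libraries, against 1342, 593 and 551 CPM in young WT libraries. Of 27 tested, 12 were called higher and 1 lower, and the count called higher was 4 without young WT 2 or 3, 5 without old WT 3, 6 without old WT 2, 21 without young WT 1 and 6 in the fit of the 6 WT libraries alone. Of 31 endothelial markers 6 were called higher, against 14.2% of all genes, and none lower. They were led by Vwf, which encodes von Willebrand factor, at 1.51 ± 0.27 (adjusted p = 0.00621). The endothelial count was 1 without old WT 1 or 2 or young WT 3, 2 without young WT 1 and 1 in the fit of the 6 WT libraries alone. Des, which encodes the muscle filament desmin, rose by 1.01 ± 0.15 log2 units (adjusted p = 0.00374) and Rgs4, a pericyte gene, by 1.25 ± 0.24 (adjusted p = 0.00698). Both are among 3 of 19 smooth muscle and pericyte markers called higher, a share near the 14.2% called higher of all genes. Leaving out 1 library gave 2 to 5 of these.

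Matrix genes were called in both directions. Fn1, fibronectin, had 205, 195 and 406 CPM in old WT libraries, against 104, 59.5 and 58.7 CPM in young WT libraries, a rise of 1.86 ± 0.32 (adjusted p = 0.00559). Fbn1, the fibrillin that also gives the hormone asprosin, rose by 1.38 ± 0.23 log2 units (adjusted p = 0.00512), Postn, periostin, by 1.20 ± 0.21 (adjusted p = 0.00533) and Fbln2, fibulin 2, by 1.55 ± 0.27 (adjusted p = 0.00585). The fibril-associated collagen Col14a1 rose by 1.99 ± 0.39 log2 units (adjusted p = 0.00781) and Col8a1 by 1.29 ± 0.27 (adjusted p = 0.00992), whereas Col3a1, a fibrillar collagen, had 424, 479 and 574 CPM in old WT libraries, against 688, 961 and 849 CPM in young WT libraries. For Col3a1 the old libraries were all lower (-0.76 ± 0.16, adjusted p = 0.0101). Col1a1, the main fibrillar collagen, was called higher at 1.58 ± 0.42 (adjusted p = 0.0221), but the call was lost without old WT 1 or 3 or young WT 2 (log2 fold change 1.52 to 1.61, adjusted p 0.0512 to 0.0599). Of 28 collagens 7 were called higher and 2 lower, against 14.2% and 8.73% of all genes. The count called higher was 3 without old WT 3 or young WT 2, 4 without old WT 1 and 2 in the fit of the 6 WT libraries alone, and the number called lower was 1 without old WT 1 or 3 or young WT 2 or old AKO 1, 2 or 3 or young AKO 3 and 0 in the fit of the 6 WT libraries alone. Of 45 other matrix proteins 14 were called higher and 4 lower. The lower ones were Lama1, Lama4 and Lamc1, chains of laminin, and Spon1. In single omissions the number called higher became 8 without young WT 3, and the number called lower was 0 without old WT 3 or young WT 2, 2 without old WT 1 or young WT 3 and 1 in the fit of the 6 WT libraries alone.

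Several genes for proteins that cut and cross-link the matrix rose. Timp2, an inhibitor of metalloproteinases, had 208, 225 and 336 CPM in old WT libraries, against 68.6, 80.3 and 48.9 CPM in young WT libraries. All old libraries were higher, by 1.96 ± 0.23 (adjusted p = 0.00137). Mmp9, a gelatinase, rose by 2.14 ± 0.34 log2 units (adjusted p = 0.00429), Mmp14, a membrane-bound collagenase, by 1.24 ± 0.20 (adjusted p = 0.00436) and the cross-linking enzyme Loxl3 by 1.14 ± 0.24 (adjusted p = 0.00972). In all 11 of 38 genes were called higher and none lower, and the count was 6 without young WT 3, 7 without old WT 3 and 4 in the fit of the 6 WT libraries alone. Without young WT 1, 12 were called higher and 4 lower, and without young AKO 1 or 2, 1 was called lower.

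In the WNT pathway several secreted antagonists rose. Sfrp1, which binds WNT ligands, had 43.8, 23.1 and 37.1 CPM in old WT libraries, against 3.66, 5.41 and 4.01 CPM in young WT libraries. The old libraries were all higher, by 2.99 ± 0.28 (adjusted p = 0.000452). Sfrp2 rose by 2.31 ± 0.40 log2 units (adjusted p = 0.00567), and Axin2, a target gene of the pathway, fell (-0.95 ± 0.22, adjusted p = 0.013). A further antagonist, Sfrp5, had 343, 257 and 327 CPM in old WT libraries, against 409, 4.16 and 3.08 CPM in young WT libraries, with young WT 1 among the old libraries and the other young libraries near 0 (log2 fold change 1.16 ± 1.28, adjusted p = 0.537). Of 33 WNT genes 7 were called higher and 3 lower, against 14.2% and 8.73% of all genes. The count called higher was 3 without young WT 3, 13 without young WT 1 and 3 in the fit of the 6 WT libraries alone, and the number called lower was 1 without old WT 3 or young WT 3 and 1 in the fit of the 6 WT libraries alone.

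In the TGF-beta, BMP and activin pathway, Fstl1, a secreted follistatin relative, had 99.4, 101 and 120.2 CPM in old WT libraries, against 38.4, 42.7 and 28.2 CPM in young WT libraries, a rise of 1.55 ± 0.19 (adjusted p = 0.00168). Tgfbi, a matrix protein that TGF-beta induces, rose by 1.70 ± 0.28 log2 units (adjusted p = 0.00467), the ligand gene Bmp2 by 1.08 ± 0.18 (adjusted p = 0.0052) and the receptor gene Tgfbr2 by 0.63 ± 0.12 (adjusted p = 0.00752). Gdf15, a stress-induced ligand, rose by 2.44 ± 0.52 log2 units (adjusted p = 0.0102), and without old WT 3 it was 1.56 (adjusted p = 0.0257). Of 46 genes 13 were called higher and 5 lower, and 3 of the falls, Acvr1, Acvr1b and Acvr1c, are receptors. The count called higher was 7 without young WT 3, 8 without old WT 3 and 4 in the fit of the 6 WT libraries alone, and the number called lower was 1 without old WT 3, 2 without old WT 1 or 2 or young WT 3 or old AKO 2 or young AKO 2, 3 without old AKO 1 or young AKO 1 and 1 in the fit of the 6 WT libraries alone.

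Most cell division genes rose, although their levels were low. Ccnb1, cyclin B1, had 2.87, 1.66 and 7.63 CPM in old WT libraries, against 0.703, 0.753 and 0.709 CPM in young WT libraries. Its rise was 2.48 ± 0.52 (adjusted p = 0.00947), and without old WT 3 it was 1.63 (adjusted p = 0.0246). Cdk1, its kinase, had 3.68, 1.95 and 9.83 CPM in old WT libraries, against 0.864, 1.11 and 1.08 CPM in young WT libraries, a rise of 2.33 ± 0.52 (adjusted p = 0.0115), and without old WT 3 it was 1.45 (adjusted p = 0.0336). In both, old WT 3 was far above the other old libraries. Tyms, the thymidylate synthase, rose by 0.90 ± 0.19 log2 units (adjusted p = 0.00891) and Rrm1, a ribonucleotide reductase subunit, by 0.90 ± 0.19 (adjusted p = 0.0104). In all 31 of 44 genes tested were called higher and 1 lower, with a median of 1.604. Single omissions moved the count called higher to 10 without old WT 3, 12 without young WT 3, 20 without young WT 2 and 0 in the fit of the 6 WT libraries alone. Macrophage markers were highest in the same library, as given above, and their part in the cell division genes was not tested.

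Promoters of cell division genes are known for CCAAT boxes near the start, and those of 3 genes of the list are shown because they hold several (RefSeq, GRCm38.p6; capitals mark CCAAT on either strand; each 5′ to 3′ on the minus strand). Cdk1 is at chr10:69352916-69353160, Ccnb1 at chr13:100786509-100786625 and Top2a, the topoisomerase that untangles chromosomes, at chr11:99024203-99024439.
Cdk1: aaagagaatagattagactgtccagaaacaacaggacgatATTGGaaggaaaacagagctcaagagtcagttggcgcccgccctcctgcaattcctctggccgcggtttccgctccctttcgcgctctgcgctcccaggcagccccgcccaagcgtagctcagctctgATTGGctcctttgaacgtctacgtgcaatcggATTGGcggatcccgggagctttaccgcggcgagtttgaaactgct
Ccnb1: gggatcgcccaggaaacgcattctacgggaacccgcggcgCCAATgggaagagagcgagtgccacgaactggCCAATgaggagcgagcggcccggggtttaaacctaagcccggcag
Top2a: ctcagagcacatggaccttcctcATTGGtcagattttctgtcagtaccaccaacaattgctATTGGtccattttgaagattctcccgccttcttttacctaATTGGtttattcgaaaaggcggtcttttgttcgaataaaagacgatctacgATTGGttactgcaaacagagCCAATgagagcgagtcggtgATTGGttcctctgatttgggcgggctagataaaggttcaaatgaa
The Top2a stretch holds 6 matches, that of Cdk1 3 and that of Ccnb1 2. CCAAT was in 32 of 38 promoters of the list (84.2%), against 37.3% of promoters of all genes tested and 80% of those of cholesterol synthesis, where no gene was called. TTTGAA, the core of the cell cycle homology region, was in 20 of 38 (52.6%), against 12.5% of all. Top2a was called higher at 2.13 ± 0.53 (adjusted p = 0.0179), but the call was lost without old WT 3 or young WT 3 (log2 fold change 1.09 to 2.21, adjusted p 0.051 to 0.0585).

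Among regulators of senescence, Cdkn2a, whose products are the cell cycle inhibitor p16 and ARF, had 1.69, 2.07 and 1.29 CPM in old WT libraries, against 0.502, 0.283 and 0.243 CPM in young WT libraries. All old libraries were higher, by 2.29 ± 0.35 (adjusted p = 0.00415). Cdkn1a, which encodes p21, was at 0.63 ± 0.28 (adjusted p = 0.131) and was not called. Of 25 regulators 5 were called higher and 2 lower, against 14.2% and 8.73% of all genes. Leaving out 1 library gave 2 to 7 higher and 0 to 3 lower, and the fit of the 6 WT libraries alone 2 and 1. Of 47 genes secreted by senescent cells 20 were called higher and 1, Vegfa, lower, with a median of 1.12. They include Plau, the urokinase, with 77.7, 81.5 and 139.7 CPM in old WT libraries, against 23.8, 38.6 and 23.5 CPM in young WT libraries, a rise of 1.80 ± 0.30 (adjusted p = 0.00517), and Il6, at 1.64 ± 0.40 (adjusted p = 0.0165). The count called higher was 14 to 22 when 1 library was left out, with 14 without young WT 3, and 9 in the fit of the 6 WT libraries alone. Macrophages are known to express many of these genes.

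**Figure D4:**
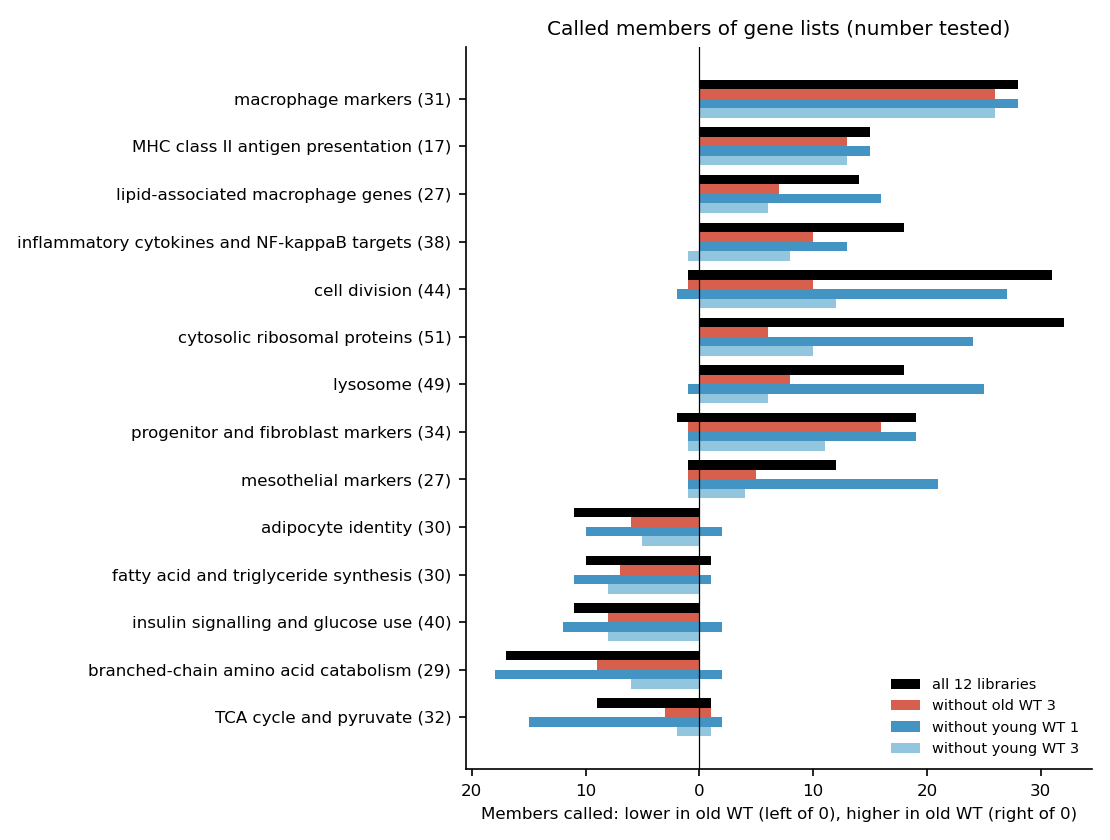
Number of members called in 14 gene lists, with all 12 libraries and without old WT 3, young WT 1 or young WT 3. The macrophage and MHC class II bars barely change, while those of cell division and ribosomal proteins drop when old WT 3 or young WT 3 is left out.

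Most genes of cytosolic ribosomal proteins rose, by small amounts. Rps20 had 206, 207 and 256 CPM in old WT libraries, against 155, 132 and 153 CPM in young WT libraries, a rise of 0.60 ± 0.11 (adjusted p = 0.00581), and Rpl35 rose by 0.58 ± 0.12 log2 units (adjusted p = 0.0103). Of 51 tested, 32 were called higher and none lower, with a median of 0.35. The count was 6 without old WT 3, 7 without young WT 2, 10 without young WT 3, 12 without old WT 1, 14 without old AKO 3, 16 without old AKO 2, 17 without old WT 2, 19 without young AKO 3 and 1 in the fit of the 6 WT libraries alone. Processed pseudogenes of these genes are many, so the level of each is uncertain.

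Some lysosomal genes rose. Ctsh, cathepsin H, had 50.8, 35.5 and 88.9 CPM in old WT libraries, against 14.9, 13.7 and 12.7 CPM in young WT libraries, a rise of 2.09 ± 0.34 (adjusted p = 0.00467). Cd68, a lysosomal protein of macrophages, rose by 3.08 ± 0.62 log2 units (adjusted p = 0.00816), and without old WT 3 it was 1.76 (adjusted p = 0.00761). Of 49 tested 18 were called higher and none lower, and the count was 6 without young WT 3, 8 without old WT 3 or young WT 2, 11 without old AKO 3 and 1 in the fit of the 6 WT libraries alone.

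Several antioxidant genes fell. Of 40 tested 10 were called lower, against 8.73% of all genes, and 1 higher. Gclc, the limiting enzyme of glutathione synthesis, had 27.1, 29.9 and 29.6 CPM in old WT libraries, against 36.2, 48.2 and 46.1 CPM in young WT libraries, a log2 fold change of -0.59 ± 0.12 (adjusted p = 0.00746). Gsr, the glutathione reductase, fell (-0.49 ± 0.10, adjusted p = 0.0101), Txnrd2, a mitochondrial thioredoxin reductase (-0.38 ± 0.08, adjusted p = 0.0102) and Prdx3, a mitochondrial peroxiredoxin (-0.41 ± 0.09, adjusted p = 0.011). The antioxidant count called lower was 4 without old WT 3 or young WT 3, 6 without young WT 2 and 1 in the fit of the 6 WT libraries alone, and the number called higher was 0 without old WT 1 or 3 or young WT 3 or old AKO 1, 2 or 3 or young AKO 2 or 3, 2 without young AKO 1, 6 without young WT 1 and 0 in the fit of the 6 WT libraries alone. Chac1, which degrades glutathione and is induced by endoplasmic reticulum stress, fell (-1.14 ± 0.20, adjusted p = 0.00615). The small heat shock protein gene Hspb1 had 185, 194 and 154 CPM in old WT libraries, against 102, 82.9 and 78.1 CPM in young WT libraries, a rise of 1.02 ± 0.14 (adjusted p = 0.00313), one of 2 called of 24 heat shock genes, a smaller share than the 22.9% called of all genes. Of 28 genes of endoplasmic reticulum stress 2 were called higher and 3 lower, again a smaller share than of all genes, and the number called higher was 0 without old WT 3, 1 without old WT 1 or 2 or young WT 2 or old AKO 1, 2 or 3, 10 without young WT 1 and 0 in the fit of the 6 WT libraries alone. Of 37 immediate early genes, which tissue dissociation also induces, 7 were called higher and 1 lower, about the share called of all genes. Klf2 had 168, 186 and 165 CPM in old WT libraries, against 75.3, 87.7 and 66.4 CPM in young WT libraries, a rise of 1.18 ± 0.13 (adjusted p = 0.0009), and Klf4 rose by 0.59 ± 0.11 log2 units (adjusted p = 0.00717). Leaving out 1 library gave 3 to 7 immediate early genes higher and 0 to 7 lower, and the fit of the 6 WT libraries alone 2 and 0.

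HOX genes, which carry positional identity, were called in both directions. The 5 called lower were Hoxa7 and Hoxc4, Hoxc5, Hoxc6 and Hoxc8, and the 5 called higher were Hoxd1, Hoxd3, Hoxd8, Hoxd9 and Hoxb9, of 28 tested. Hoxc8 had 57.8, 70.6 and 56.4 CPM in old WT libraries, against 96.6, 101 and 108 CPM in young WT libraries, a log2 fold change of -0.72 ± 0.12 (adjusted p = 0.00521). Hoxc4 fell (-0.93 ± 0.17, adjusted p = 0.00671), Hoxc6 (-0.63 ± 0.11, adjusted p = 0.00617), Hoxc5 (-0.49 ± 0.11, adjusted p = 0.0116) and Hoxa7 (-0.99 ± 0.17, adjusted p = 0.00517). Hoxd8 rose by 0.56 ± 0.13 log2 units (adjusted p = 0.0123), but without old WT 2 its log2 fold change was 0.40 (adjusted p = 0.053). Neighbours in a cluster overlap, and without stated strand their reads cannot be told apart. In single omissions the number called higher became 1 without old WT 2 or young WT 3, 2 without old WT 1 or young WT 2, 3 without old WT 3 and 1 in the fit of the 6 WT libraries alone, and the number called lower was 8 without old WT 2.

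Genes of vascular growth factors were called in both directions, at shares near those of all genes (14.2% higher and 8.73% lower). While Vegfa and Angpt1 fell as given above, Vegfc, the ligand of lymphatic growth, had 11.2, 12.2 and 8.96 CPM in old WT libraries, against 2.51, 4.26 and 2.22 CPM in young WT libraries. It rose by 1.85 ± 0.30 log2 units (adjusted p = 0.00472), the platelet-derived ligand gene Pdgfb by 1.10 ± 0.19 (adjusted p = 0.00521) and Ang, angiogenin, by 1.87 ± 0.37 (adjusted p = 0.00781). Of 24 ligands tested 5 were called higher and 2 lower, and the count called higher was 3 without old WT 2 or young WT 3, 8 without young WT 1 and 3 in the fit of the 6 WT libraries alone.

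Metal-handling genes moved in both directions too. The metallothioneins, which bind zinc and copper, fell. Mt2 had 379.8, 365 and 423 CPM in old WT libraries, against 633, 892 and 883 CPM in young WT libraries, a log2 fold change of -1.04 ± 0.17 (adjusted p = 0.00509), and Mt1 fell (-0.90 ± 0.19, adjusted p = 0.00992). Steap2, a metalloreductase, fell (-1.79 ± 0.30, adjusted p = 0.00517), its relative Steap3 rose by 0.77 ± 0.16 log2 units (adjusted p = 0.00882), and Slc40a1, the iron exporter ferroportin, had 14.4, 10.1 and 15.2 CPM in old WT libraries, against 7.58, 4.63 and 2.67 CPM in young WT libraries, a rise of 1.42 ± 0.33 (adjusted p = 0.0147). Of 19 genes of iron, creatine and metallothionein 4 were called higher and 4 lower. With fewer libraries the count called higher was 2 without young WT 2 or 3 and 1 in the fit of the 6 WT libraries alone.

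Some markers of cells foreign to an adipocyte preparation were called. Of all genes 22.9% were called, 14.2% higher and 8.73% lower. Of 10 testis and epididymis markers tested 1 was called, the meiotic gene Sycp3, with 54.6, 32.1 and 45.1 CPM in old WT libraries, against 12.4, 9.15 and 6.57 CPM in young WT libraries (log2 fold change 2.23 ± 0.35, adjusted p = 0.00423). Of 14 skeletal muscle markers 3 were called higher and 1 lower, and of 15 nerve and Schwann cell markers 3 were called higher and 1 lower. Leaving out 1 library gave 2 to 5 muscle markers and 1 to 4 nerve markers called higher. Of 21 markers of monocytes, dendritic cells and neutrophils that were tested 6 were called higher, a larger share than of all genes, with a median of 0.76. The number called higher was 4 to 7 when 1 library was left out, with 1 called lower without young WT 1. Of 12 tested markers of red cells and platelets 2 were called higher, and the number called higher was 1 without old WT 1, 2 or 3 or young WT 3.

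Most genes called in WT moved in the same direction in the libraries labelled AKO. In them 2766 genes were called between 18 and 3 months (18.4%), 1571 higher (10.4%) and 1195 lower (7.93%). Without old AKO 1, 2 or 3 the number called was 732, 1213 or 1506, and without young AKO 3 it was 833. The 2 comparisons share no library, though they share the estimate of the spread. Of the genes called in WT, 1495 were called in the same direction in AKO, 43.3% of the WT calls and 54.0% of the AKO calls. That overlap was 548, 781 or 948 without old AKO 1, 2 or 3, 598 without young AKO 3, 950 without old WT 1, 821 without young WT 3 and 2322 without young WT 1. Of those called higher in WT, 94.1% had a log2 fold change of the same sign in AKO, and of those called lower 96.3%. The same share over all genes tested was not computed, so how far the called genes differ from it is not known. Over the genes called higher in WT, which were chosen by their WT values, the median log2 fold change was 1.49 in WT and 0.97 in AKO. No gene called lower in WT was called higher in AKO, and 3 called higher in WT were called lower in AKO.

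**Figure D5:**
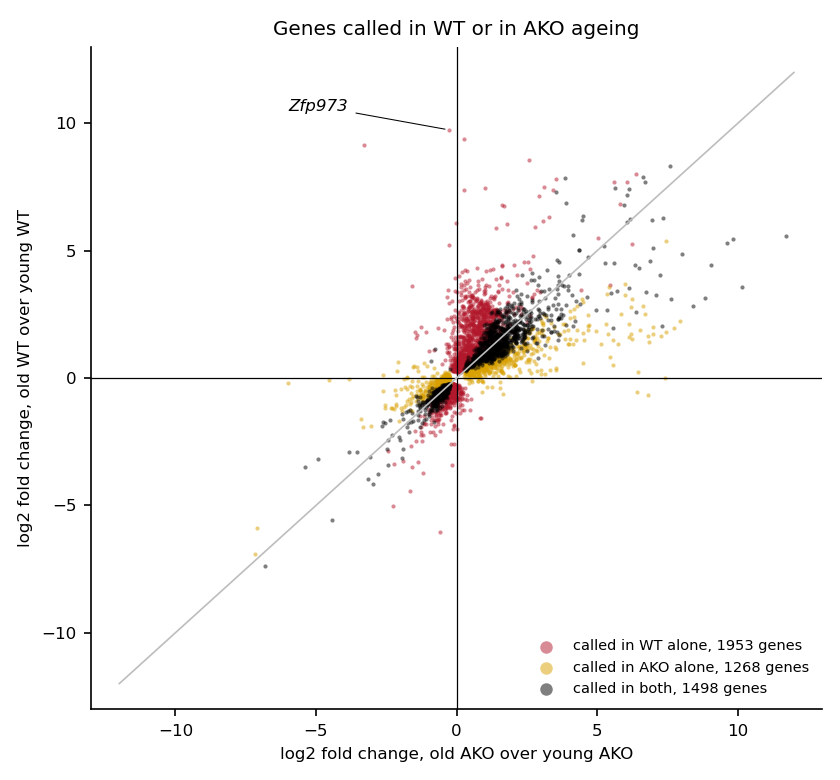
Each point is a gene with its log2 fold change of old over young in the libraries labelled AKO on the horizontal axis and in those labelled WT on the vertical axis. Colours mark the 1953 genes called in WT alone, the 1268 called in AKO alone and the 1498 called in both. Most called genes lie toward the lower left or upper right corner, and Zfp973, the one gene called for the difference, is labelled.

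Tested directly, the ageing effect differed between WT and AKO in 1 gene (0.00664% of those tested), with 1409 genes at an unadjusted p under 0.05. The count was 2 without old AKO 1, old AKO 2 or young AKO 1, 4 without young AKO 2, and 58 by DESeq2. That gene was Zfp973, a zinc finger gene with close relatives, so that its level is uncertain. It had 101, 163 and 68 reads in old WT libraries and no read in any young WT library, and the fitted difference of the log2 fold changes was 10.01 (adjusted p = 0.00864), a size that rests on a group at 0 and depends on the fit. Next by p came Lum, which encodes the collagen-binding proteoglycan lumican. It had 28.6, 24.9 and 36.6 CPM in old WT libraries, against 11.5, 12.9 and 13.2 CPM in young WT libraries, a rise of 1.26 ± 0.16 in WT (adjusted p = 0.00205), against -0.26 in AKO (adjusted p = 0.285). The difference for Lum was 1.52 and did not pass (adjusted p = 0.239). Vegfa, at -0.72 in WT and 0.13 in AKO (adjusted p in AKO = 0.458), differed by -0.84 (adjusted p = 0.415). Cell division genes, with 31 called higher in WT, had 3 called higher and 1 lower in AKO. Ribosomal protein genes, with 32 called in WT and a median of 0.35, had a median of -0.04 in AKO. Oxidative phosphorylation genes had 4 called lower in WT (0 to 22 when 1 library was left out) and 50 in AKO, with medians of -0.12 and -0.34. None of these differences passed the test of the difference itself for any gene of the 3 lists.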

How the data were processed

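Poly(A) RNA was sequenced on a HiSeq4000 from TruSeq mRNA libraries, and RNA was required to have a RIN over 7, according to the labels' protocols. The submitters' processing notes name HISAT2 2.1.0, HISAT, Bowtie2, StringTie 1.3.4d and mm10, without role or order, and the strand is not given in the sources used here. The table deposited by the authors holds, for 36779 transcripts, an estimated count in whole numbers that is not scaled for depth, and an FPKM value scaled by the authors for length and depth. It has no mitochondrial transcripts, and 1 line was empty in the copy used.

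Estimated counts were summed per gene symbol (24541 symbols, 24531 gene IDs), scaled by TMM and filtered with filterByExpr, which kept 15068 genes. The edgeR 4.0.16 quasi-likelihood test (R 4.3.3) was fitted to all 12 libraries with a mean per group, 8 residual and 2.89 prior degrees of freedom and a biological coefficient of variation of 24.7%. Tests were two-sided, with Benjamini-Hochberg adjustment over all genes tested. FPKM served for levels and as an alternative. Scripts were tested on simulated counts. Other settings, run with edgeR, limma 3.58.1 or DESeq2 1.42.0, are described at the end. Figures were drawn with matplotlib 3.10.9.

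The comparison, the 54 gene lists and the alternatives were chosen with earlier results of these data known. The rule for named genes takes Crtc2, the 15 largest rises and falls among called genes at a mean of 1 CPM or more whose groups do not overlap, the 10 called genes with the smallest p, for each list the 6 members (or fewer) of smallest p, other members where needed to account for a list, and the 10 genes with the smallest p for the difference between genotypes. Not every gene it gives is printed. Runs of neighbouring called genes were read from mm10 coordinates of the reference, and promoters (250 bases before to 50 after a start) came from RefSeq, with 11820 of the genes tested matched.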

Additional observations from a re-analysis of the deposited data

Results flagged for a closer look

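Zfp973 stood out because its ageing effect differed between the libraries labelled WT and those labelled AKO. The fitted difference of the log2 fold changes, WT minus AKO, was 10.01 (adjusted p = 0.00864 by edgeR's quasi-likelihood test over all genes), the one value past the threshold for that test. Zfp973 is a zinc finger gene with close relatives, so its level is uncertain. Young WT libraries had no read of it, so the size of this fitted value depends on the fit and is no bound.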

How the results depend on the processing

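Under each of 25 other settings on the WT comparison, every gene called with the settings used above that was measured kept its sign. These settings reuse the same WT libraries, and in 3347 of the 3451 called genes the groups did not overlap. A kept sign was therefore nearly fixed in advance and does not measure stability. The number called did move. In WT it was 3451 and moved to 827 when a fold past 1.5 was required (glmTreat), 1058 in a fit of the 6 WT libraries alone and 1640 transcripts when transcripts were not summed, and to 1511 to 4436 without 1 library. In AKO it was 2766 and moved to 473 with glmTreat and 1019 transcripts, and to 732 to 3771 without 1 library. The overlap of 1495 moved to 247 with glmTreat, 2354 without both old WT 3 and young WT 1, and 548 to 2322 without 1 library. For the difference of ageing, 1 gene was called, against 58 by DESeq2, 0 by limma-voom, 0 or 2 on FPKM with a pseudocount of 1 or 0.1, 2 without both libraries, 7 transcripts, and 1 to 4 without 1 library. Same-numbered libraries showed no clear shared deviation (correlations of -0.20 to 0.07). This check cannot exclude pairing, for example one that affects few genes. With the replicate block in all 12 libraries, 2813 genes were called in WT and 0 for the difference, and with the replicate block in the 6 WT libraries alone 9 in WT. Of 8142 values of the 327 named genes under other settings, 1013 lost the call, 98 gained it and 0 turned sign. The medians of the lists of fatty acid uptake, oxidative phosphorylation, endoplasmic reticulum stress and heat shock turned sign on FPKM. The causes of these moves were not tested. Genes with few reads in young WT are limited by depth.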

Other observations

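Several runs of 5 or more neighbouring genes were called in the same direction in WT and belong to no list above. Genes of the Sp100 family (Sp110, Sp140 and Sp100), known as interferon-induced nuclear body proteins, lay among 7 neighbours called higher (chr1:85088139-85736606). The lipid transporter genes Abca8b, Abca8a, Abca9 and Abca6 were called higher beside Fam20a (chr11:109672926-110251776). The protease inhibitor genes Serpinb1a, Serpinb6b, Serpinb9, Serpinb9b and Serpinb6a were called higher (chr13:32842092-34002794), while the Serpina3 cluster was called lower. A run of 6 genes called lower held Zyg11a, Zyg11b, Podn, Scp2, Echdc2 and Coa7 (chr4:108014793-108340718). Coordinates are mm10, the runs were picked after the calls were known, and the levels of paralogs in them are uncertain.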
